A study of Mus musculus with 8 samples.

Results

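Slc2a2, G6pc2, Slc30a8, Kcnj11 and Abcc8 were followed in the endocrine cells of mouse pancreatic islets profiled by single nucleus RNA-seq. These 5 genes, of 17362 in the table, were chosen for their known roles in glucose sensing and insulin secretion, and all 5 were present. The choice was made with earlier results of these data known. Their values were read in 24 of the 54 columns, which hold the beta, alpha, delta and PP cells of 6 conditions. Islets came from wild type (WT) mice and from mice with a whole-body Med14 S983A knock-in (mutant), in which every cell carries alanine in place of a serine of the Mediator scaffold subunit Med14. For each genotype, cultured islets were untreated (CON) or were exposed to forskolin (FSK), a direct activator of adenylyl cyclase, or to the GLP-1 receptor agonist Exendin-4 (Ex-4). Ex-4 was given at 10 nM for 16 h, and FSK also for 16 h. The mutant mice are listed as C57BL/6J, while the dose of FSK on islets and the age and sex of the mice were not given in the sources used here. About 100 islets made up a sample, and the number of mice behind a pool was likewise not given. An expression table cannot show the S983A change itself, so the genotype labels were not checked here.

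A beta cell takes up glucose through GLUT2, the product of Slc2a2. G6pc2 encodes a glucose-6-phosphatase of the islet, which returns glucose-6-phosphate to glucose and so opposes the entry of glucose into glycolysis. ATP made from glucose closes the KATP channel, which consists of the pore subunit Kir6.2 (Kcnj11) and the sulfonylurea receptor SUR1 (Abcc8), and the resulting depolarization opens calcium channels and releases insulin. The zinc transporter ZnT8 (Slc30a8) loads zinc into the granules in which insulin is stored. Alpha and delta cells also use KATP channels.

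Each condition and cell type was represented by 1 pooled column and there were no replicates. No test was therefore run, and condition cannot be told apart from islet pool or barcode well. Values are counts per 10000 counts of a column (CP10K). Parentheses hold 95% intervals, which cover counting error only. Nuclei numbers were not analysed here, and in a pooled column fewer nuclei with a transcript and less transcript per nucleus cannot be told apart. Beta cell columns held 1915006 to 3094377 counts, alpha cell columns 269394 to 810127, delta cell columns 362410 to 631433 and PP cell columns 38625 to 127727. A gene was called higher or lower when its CP10K ratio was past 1.5-fold. The calls were read against all genes of the same cell type with a mean of at least 10 counts over its 6 columns, 10987 genes in beta cells. All 5 genes passed that filter in beta, alpha and delta cells, but only Slc30a8 and Abcc8 did in PP cells. The cell type names are those of the authors. Summed over 8 beta cell markers, beta cell columns held 34.8 to 41.5 CP10K and none of the markers was at 0. A list of 6 alpha cell markers summed to 38.9 to 125 CP10K in alpha cells, against 1.09 to 4.36 in beta cells. A list of 5 delta cell markers summed to 9.31 to 29.1 CP10K in delta cells, and the 3 listed PP cell markers to 12.2 to 16.6 in PP cells.

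The genes fell into 3 patterns across cell types. Slc2a2 and G6pc2 were highest in beta cells, Slc30a8 was high in both alpha and beta cells, and the KATP channel genes Kcnj11 and Abcc8 were at or above their beta cell level in the other 3 endocrine types when the conditions were summed. Of the 15 pairs of a gene and another endocrine type, 8 had a beta cell level at least 1.5-fold higher in 6 of 6 conditions, namely Slc2a2 and G6pc2 against each of the 3 types and Slc30a8 against delta and PP cells. The share of all genes with such a difference was not computed, so this count cannot be set against a background. The authors assigned the cell types from expression, so these differences are descriptive. G6pc2 in PP cells rests on 2 to 5 counts a column. In WT Ex-4 its beta over PP cell ratio was 2.45 (0.834 to 11.9), which is within counting error. With the counts of the 6 conditions summed, Slc2a2 in alpha cells stood at 7.76% (6.72% to 8.92%) of its beta cell level, and at 9.63% (8.36% to 11.0%) in delta cells. G6pc2 stood at 7.31% (6.08% to 8.72%) in alpha cells and at 7.03% (5.72% to 8.54%) in delta cells. On the same scale the summed beta cell markers were at 11.4% in alpha, 20.2% in delta and 10.7% in PP cells. In endothelial nuclei, which should lack these genes, the markers were at 14.7%, Slc2a2 at 17.7% (14.3% to 21.8%) and G6pc2 at 9.42% (6.44% to 13.3%). Summed over conditions, Slc2a2 and G6pc2 in alpha and delta cells thus lay below the share that beta cell markers reached there. Whether those cells express these genes was not tested. By condition, Slc2a2 in alpha cells was above the marker share in 1 of 6 columns (15.1% against 14.7% in WT Ex-4) and G6pc2 in 2 of 6 (13.2% against 12.1% in mutant CON, 16.2% against 12.7% in mutant Ex-4), while in delta cells both were below it in 6 of 6. In PP cells G6pc2 was above the marker share in 3 of 6 columns and Slc2a2 in 1 of 6. The part of beta cell RNA in these counts was not tested.

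Slc30a8 in alpha cells was at 121% (117% to 125%) of its beta cell level, far above the marker share. In delta cells it was at 12.7% (11.5% to 14.0%), below the marker share, and in PP cells at 17.6% (14.1% to 21.6%), above it. The PP value rests on 90 counts. In endothelial nuclei Slc30a8 was at 14.9% (12.3% to 17.9%), an interval that overlaps the PP one. Whether PP cells express Slc30a8 was not tested. Abcc8 was at 101% (98.9% to 104%) of the beta cell level in alpha cells, 125% (122% to 129%) in delta cells and 112% (105% to 119%) in PP cells. Kcnj11 was at 138% (120% to 157%), 135% (117% to 155%) and 158% (115% to 212%). In endothelial nuclei Abcc8 was at 22.5% (20.1% to 25.1%) and Kcnj11 at 16.1% (6.44% to 33.2%). The highest Abcc8 value outside the endocrine types was 58.9% (51.3% to 67.3%), in the columns named neurons, where the beta cell markers were also at 50.8% of their beta cell level. The part of free beta cell RNA in these values was not tested.

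**Figure D1:**
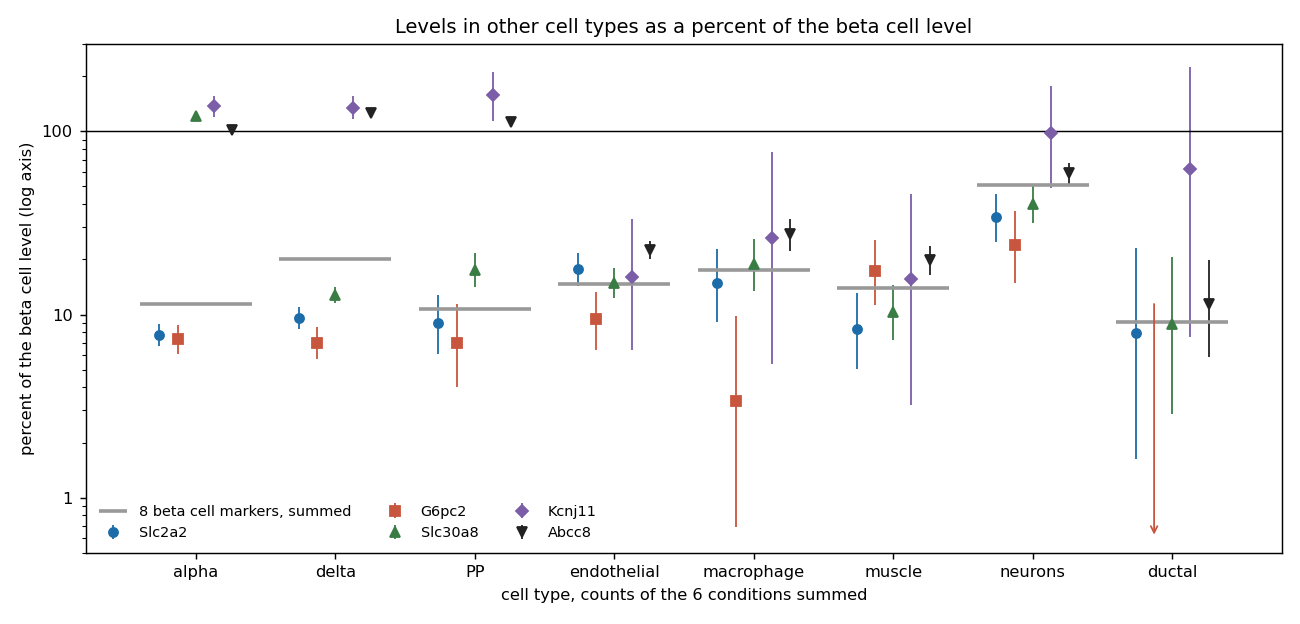
Level of each gene in 8 other cell types as a percent of its beta cell level (y axis, log scale), with the counts of the 6 conditions summed. Macrophage columns held 0 CP10K of the listed macrophage markers in WT Ex-4 and mutant Ex-4. Ductal columns held 0 CP10K of the listed ductal markers in WT CON, WT FSK, WT Ex-4 and mutant Ex-4. Bars are 95% counting intervals, grey lines show 8 beta cell markers summed, and the arrow marks G6pc2 at 0 counts in ductal cells, drawn down from the level of 3 counts. Kcnj11 and Abcc8 lie at or above 100% in the 3 endocrine types, Slc30a8 does so in alpha cells, and Slc2a2 and G6pc2 stay at or below 17.7% outside the columns named neurons.

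Slc2a2 lies on chromosome 3 at 28752051 to 28785508 (GRCm39, plus strand), with 11 exons in its canonical transcript, and overlaps a long noncoding RNA gene on the opposite strand. In beta cells its level was 12.0 CP10K (11.6 to 12.4) for untreated WT islets, 7.90 (7.59 to 8.22) after FSK and 6.91 (6.61 to 7.21) after Ex-4. In the mutant it was 4.82 (4.51 to 5.14) untreated, 5.21 (4.91 to 5.51) after FSK and 5.13 (4.82 to 5.46) after Ex-4. Untreated WT beta cells thus stood above the other 5 columns, and the 3 mutant columns were lowest, with no difference between neighbours among them beyond counting error. The 3 WT columns differed from each other beyond counting error. Outside beta cells the levels were 0.204 to 1.07 CP10K in alpha cells, 0.211 to 2.12 in delta cells and 0 to 3.21 in PP cells, and WT CON was the highest column in each. It stood above the next column beyond counting error only in delta cells, at a ratio of 2.80 (1.90 to 4.17). The ratio was 1.03 (0.669 to 1.59) in alpha cells and 2.48 (0.904 to 8.47) in PP cells. The 0 was in WT FSK PP cells, where a count of 0 allows up to 0.633 CP10K (3 counts).

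G6pc2 lies on chromosome 2 at 69041417 to 69058185 (plus strand), with 5 exons. Its beta cell level was 4.20 CP10K (3.97 to 4.44) for untreated WT islets, 8.97 (8.64 to 9.31) after FSK and 1.90 (1.75 to 2.07) after Ex-4. Mutant islets gave 1.59 (1.42 to 1.78) untreated, 9.34 (8.95 to 9.75) after FSK and 1.94 (1.75 to 2.15) after Ex-4. Both FSK columns were the highest and did not differ from each other beyond counting error. WT CON lay between them and the remaining 3 columns, which ran from 1.59 to 1.94 and of which both Ex-4 columns did not differ beyond counting error. Over the 6 beta cell columns G6pc2 spanned a 5.86-fold range, the widest of the 5 genes.

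The sequences upstream of Slc2a2 and G6pc2 are shown because both genes were high in beta cells while their WT ratios with FSK had opposite directions. RefSeq promoter windows (GRCm38.p6) were at hand for these 2 of the 5 genes, and were placed on GRCm39 by exact match. For G6pc2, chr2:69050043-69050292 on the plus strand leads up to a RefSeq start 22 bases before the canonical start in GENCODE, and lies inside the annotated span because another transcript starts upstream. For Slc2a2, chr3:28751802-28752051 on the plus strand ends at the canonical start. Capitals mark TAAT, the core bound by homeodomain factors, read on either strand so that ATTA is a match on the minus strand.
G6pc2: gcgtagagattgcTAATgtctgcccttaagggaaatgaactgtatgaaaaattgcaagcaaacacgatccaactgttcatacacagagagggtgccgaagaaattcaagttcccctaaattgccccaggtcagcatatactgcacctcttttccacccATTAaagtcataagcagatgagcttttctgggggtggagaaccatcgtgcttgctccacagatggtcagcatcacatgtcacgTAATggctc
Slc2a2: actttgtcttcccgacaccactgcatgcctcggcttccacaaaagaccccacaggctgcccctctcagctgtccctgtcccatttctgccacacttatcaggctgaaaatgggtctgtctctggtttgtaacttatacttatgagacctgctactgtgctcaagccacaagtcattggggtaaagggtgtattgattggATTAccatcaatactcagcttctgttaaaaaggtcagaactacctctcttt
The G6pc2 window held 3 TAAT matches and the Slc2a2 window 1. Of 32544 RefSeq promoter windows of 300 bases, 57.9% held at least 1 TAAT. The full cAMP response element TGACGTCA, searched on both strands, was present in 1.80% of all windows and in neither of these, and its core TGACG was present in 20.9% and also in neither. The other G6pc2 window, at the upstream start at 69041417, held 1 TGACG and 1 TAAT and no TGACGTCA. These are matches of letters and say nothing of binding.

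Slc30a8 lies on chromosome 15 at 52158949 to 52199194 (plus strand), with 8 exons. In beta cells its level was 19.3 CP10K (18.8 to 19.8) for untreated WT islets, 10.9 (10.5 to 11.3) after FSK and 8.98 (8.64 to 9.33) after Ex-4. In the mutant it was 7.57 (7.18 to 7.97) untreated, 8.44 (8.07 to 8.83) after FSK and 7.72 (7.33 to 8.13) after Ex-4. The order of the beta cell columns was the same as that of Slc2a2, with WT CON well above the other columns. In alpha cells it was 29.5 CP10K (27.9 to 31.2) for untreated WT islets, 13.5 (12.2 to 15.01) after FSK and 13.2 (12.2 to 14.4) after Ex-4. In mutant alpha cells it was 10.7 (9.98 to 11.4), 9.47 (8.80 to 10.2) and 11.1 (10.3 to 11.8) in CON, FSK and Ex-4. The alpha cell level was above the beta cell level in 6 of 6 conditions, at 112% to 154% of it, each beyond counting error. Delta cells held 3.39 CP10K (2.82 to 4.05) for untreated WT islets, 0.398 (0.232 to 0.637) after FSK and 1.30 (0.980 to 1.68) after Ex-4. Mutant delta cells held 1.59 (1.28 to 1.95), 0.697 (0.506 to 0.935) and 1.56 (1.24 to 1.92). FSK columns were the lowest of each genotype. In PP cells WT CON held 36 counts (5.79 CP10K), WT FSK 0 counts and the other 4 columns 8 to 19 counts.

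The KATP channel genes lie next to each other on the minus strand of chromosome 7, 3758 bases apart. Kcnj11, a gene with a single exon in its canonical transcript, is at 45743377 to 45750188. Abcc8, with 39 exons and 5 overlapping noncoding or unconfirmed genes, is at 45753947 to 45829473. Whether the counting used strand was not given in the sources used here, so reads of overlapping genes on the opposite strand could not be set apart. Abcc8 varied least of the 5 genes. Its beta cell level was 20.9 CP10K (20.4 to 21.4) for untreated WT islets, 19.8 (19.3 to 20.3) after FSK and 20.9 (20.3 to 21.4) after Ex-4. The mutant levels were 22.0 (21.3 to 22.7), 18.8 (18.3 to 19.4) and 21.4 (20.8 to 22.1) in CON, FSK and Ex-4. The FSK column was lowest in each genotype, and this held in alpha, delta and PP cells too. In PP cells that rank lay within counting error. There WT FSK held 21.1 CP10K (17.2 to 25.6) against 23.5 (19.8 to 27.6) in WT CON, and the ratio of mutant CON to mutant FSK was 1.04 (0.868 to 1.25). In delta cells Abcc8 was 28.0 CP10K (26.3 to 29.8) in WT CON against 21.2 (19.9 to 22.6) in WT FSK, and 28.3 (27.0 to 29.7) in mutant CON against 20.4 (19.3 to 21.5) in mutant FSK. Alpha cell levels ran from 18.3 to 22.0 and PP cell levels from 21.1 to 25.0.

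Kcnj11 rested on far fewer counts, 112 to 231 in a beta cell column. Its beta cell level was 0.518 CP10K (0.440 to 0.606) for untreated WT islets, 0.459 (0.387 to 0.541) after FSK and 0.775 (0.678 to 0.882) after Ex-4. In the mutant it was 0.826 (0.702 to 0.965), 0.486 (0.400 to 0.585) and 0.804 (0.682 to 0.942) in CON, FSK and Ex-4. The columns formed a lower set (WT CON and both FSK columns) and a higher set (mutant CON and both Ex-4 columns), with no difference beyond counting error within either. Alpha cells held 0.668 to 1.08 CP10K on 28 to 77 counts, with the FSK column highest in each genotype. Delta cells held 0.491 to 1.13 CP10K on 21 to 64 counts, with the FSK column lowest in each genotype. In both types no neighbours in the order of conditions differed beyond counting error. Columns further apart in the order did differ in delta cells. There mutant CON held 1.13 CP10K (0.870 to 1.44), against 0.665 (0.479 to 0.899) in mutant FSK and 0.662 (0.424 to 0.985) in WT CON. Both differences were past 1.5-fold and beyond counting error, and both changed sign after removal of the trend with gene length.

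**Figure D2:**
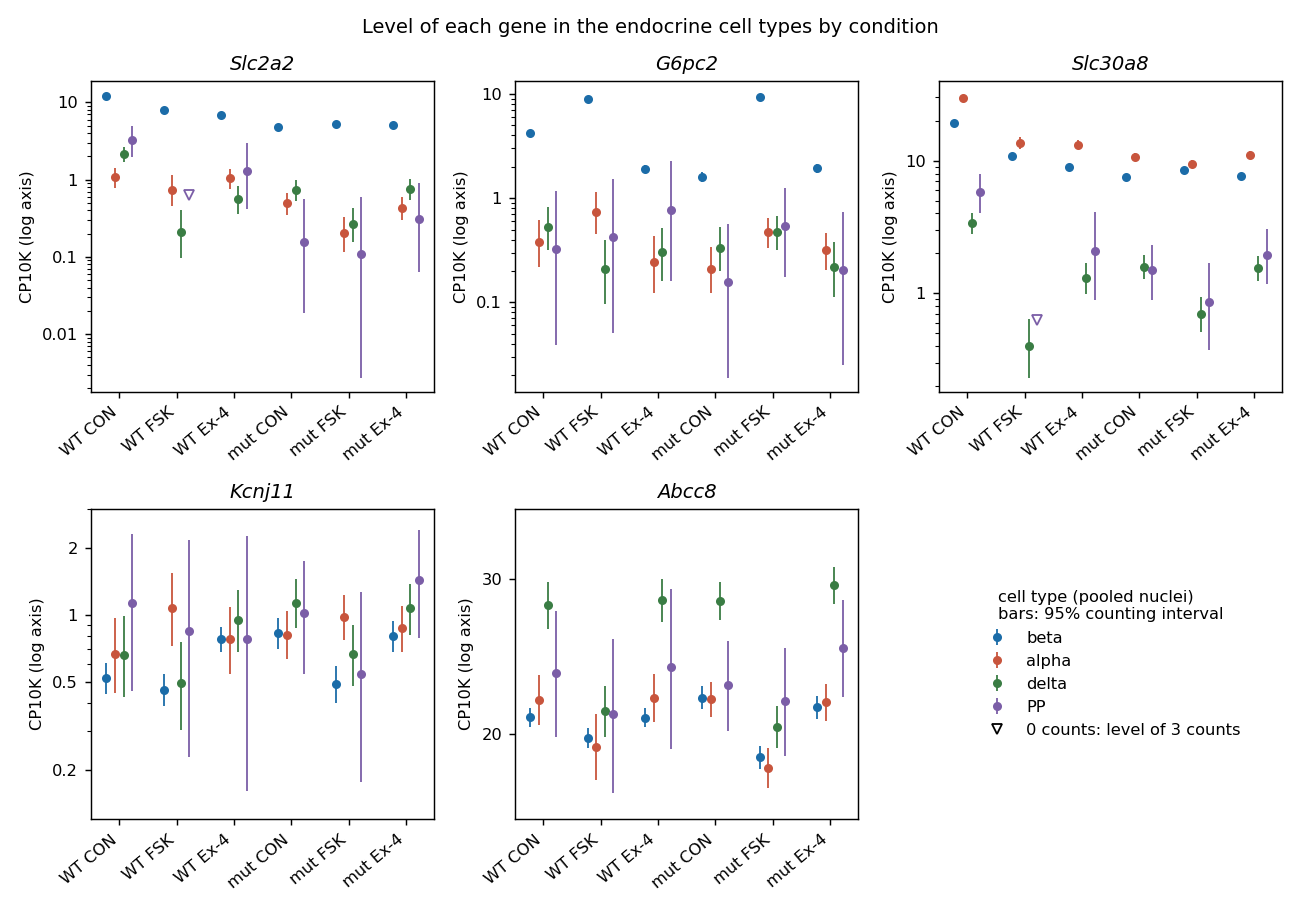
CP10K of each gene (y axes, log scale, each with its own range) in the 6 conditions for beta, alpha, delta and PP cells, with 95% counting intervals. mut is the Med14 S983A mutant, and open triangles stand for 0 counts, drawn at the level of 3 counts. WT CON is the highest beta cell column of Slc2a2 (12.0) and Slc30a8 (19.3), the FSK columns are the highest of G6pc2 (8.97 and 9.34), and beta cell Abcc8 stays between 18.8 and 22.0.

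Ex-4 was compared with CON within each genotype. In WT beta cells 3 of the 5 genes were lower and none was higher. G6pc2 was 2.21-fold lower (2.00 to 2.44), Slc30a8 2.14-fold lower (2.05 to 2.24) and Slc2a2 1.74-fold lower (1.65 to 1.84). Among all genes 12.3% were lower and 29.0% higher, and the median log2 ratio was 0.19. Only 2.16%, 2.38% and 6.58% of genes had a smaller ratio than G6pc2, Slc30a8 and Slc2a2. With that median set to 0, 19.4% of genes were lower and 21.4% higher. Kcnj11 had a ratio of 1.496 (1.22 to 1.85), just under the threshold, and Abcc8 one of 0.999 (0.964 to 1.03). After removal of the trend of the ratios with gene length, the Kcnj11 log2 difference changed from 0.58 to -0.34. In mutant beta cells none of the 5 genes was past 1.5-fold, against 5.52% of all genes higher and 7.86% lower. Slc2a2 had a ratio of 1.07 (0.973 to 1.17), Slc30a8 1.02 (0.949 to 1.10), Kcnj11 0.974 (0.775 to 1.22) and Abcc8 0.975 (0.934 to 1.02). G6pc2 was the only one whose interval lay apart from 1, at 1.22 (1.04 to 1.42).

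With FSK, G6pc2 had the largest ratio of the 5 genes. In WT beta cells G6pc2 was 2.14-fold higher with FSK (2.00 to 2.28), while Slc30a8 was 1.77-fold lower (1.69 to 1.84) and Slc2a2 1.52-fold lower (1.45 to 1.60). Thus 1 of 5 genes was higher and 2 were lower, against 7.15% and 36.3% of all genes. The median log2 ratio of all genes was -0.34, and 97.1% of genes had a smaller ratio than G6pc2. Slc30a8 and Slc2a2 lay nearer to that median, with 26.2% and 35.3% of genes below them. With the median set to 0, 15.8% of genes were higher and 22.6% lower, and Slc30a8 and Slc2a2 were no longer past 1.5-fold, at log2 differences of -0.48 and -0.26. Kcnj11 had a ratio of 0.886 (0.701 to 1.12) and Abcc8 0.947 (0.914 to 0.981). Removal of the length trend moved the Kcnj11 log2 difference from -0.17 to 0.78.

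In mutant beta cells G6pc2 was 5.86-fold higher with FSK (5.20 to 6.63), and 99.0% of genes had a smaller ratio. Kcnj11 was 1.70-fold lower (1.33 to 2.18). These were 1 gene higher and 1 lower, against 21.7% and 33.7% of all genes. The Kcnj11 value turned from -0.76 to 0.23 on the log2 scale after removal of the length trend. Slc2a2 had a ratio of 1.08 (0.990 to 1.18), Slc30a8 1.12 (1.04 to 1.20) and Abcc8 0.856 (0.821 to 0.893). The G6pc2 level reached with FSK was close in both genotypes (8.97 and 9.34 CP10K), and the CON levels from which the ratios were taken were 4.20 and 1.59.

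Mutant and WT beta cells differed most when untreated. In mutant CON against WT CON, G6pc2 was 2.63-fold lower (2.32 to 2.99), Slc30a8 2.54-fold lower (2.40 to 2.70) and Slc2a2 2.49-fold lower (2.32 to 2.68), while Kcnj11 was 1.59-fold higher (1.27 to 2.00). Thus 3 of 5 genes were lower and 1 was higher, against 22.0% and 26.8% of all genes. Only 2.86% to 3.67% of genes had a smaller ratio than these 3. Among genes with a mean of at least 50 counts, 26.9% were lower and 18.2% higher. Rescaling the columns without ribosomal RNA linked and mitochondrial genes gave 17.2% of genes lower and 32.1% higher. Those genes took 3.44% of the counts in WT CON and 11.9% in mutant CON. The Kcnj11 value turned from 0.67 to -0.20 on the log2 scale after removal of the length trend. Abcc8 had a ratio of 1.05 (1.01 to 1.09). This comparison and both WT treatment comparisons share the WT CON column, in which Slc2a2, Slc30a8 and the intermediate G6pc2 level stood apart, so they are not independent of each other.

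The genotypes were closer under treatment. In mutant FSK against WT FSK, Slc2a2 was 1.52-fold lower (1.42 to 1.63), and it was the only gene past the threshold, against 1.94% of all genes lower and 25.5% higher. With the median of all genes set to 0 these shares were 4.70% and 18.5%. Among genes with a mean of at least 50 counts they were 1.14% and 8.36%. Slc30a8 had a ratio of 0.775 (0.732 to 0.819), with 5.32% of genes below it. G6pc2 had a ratio of 1.04 (0.984 to 1.10), Kcnj11 1.06 (0.820 to 1.37) and Abcc8 0.951 (0.915 to 0.989). In mutant Ex-4 against WT Ex-4 none of the 5 genes was past 1.5-fold, against 3.20% of genes higher and 11.0% lower, or 5.53% and 6.33% with the median set to 0. Slc2a2 had a ratio of 0.743 (0.688 to 0.802) and Slc30a8 0.860 (0.807 to 0.917), while the intervals of G6pc2, Kcnj11 and Abcc8 held 1.

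**Figure D3:**
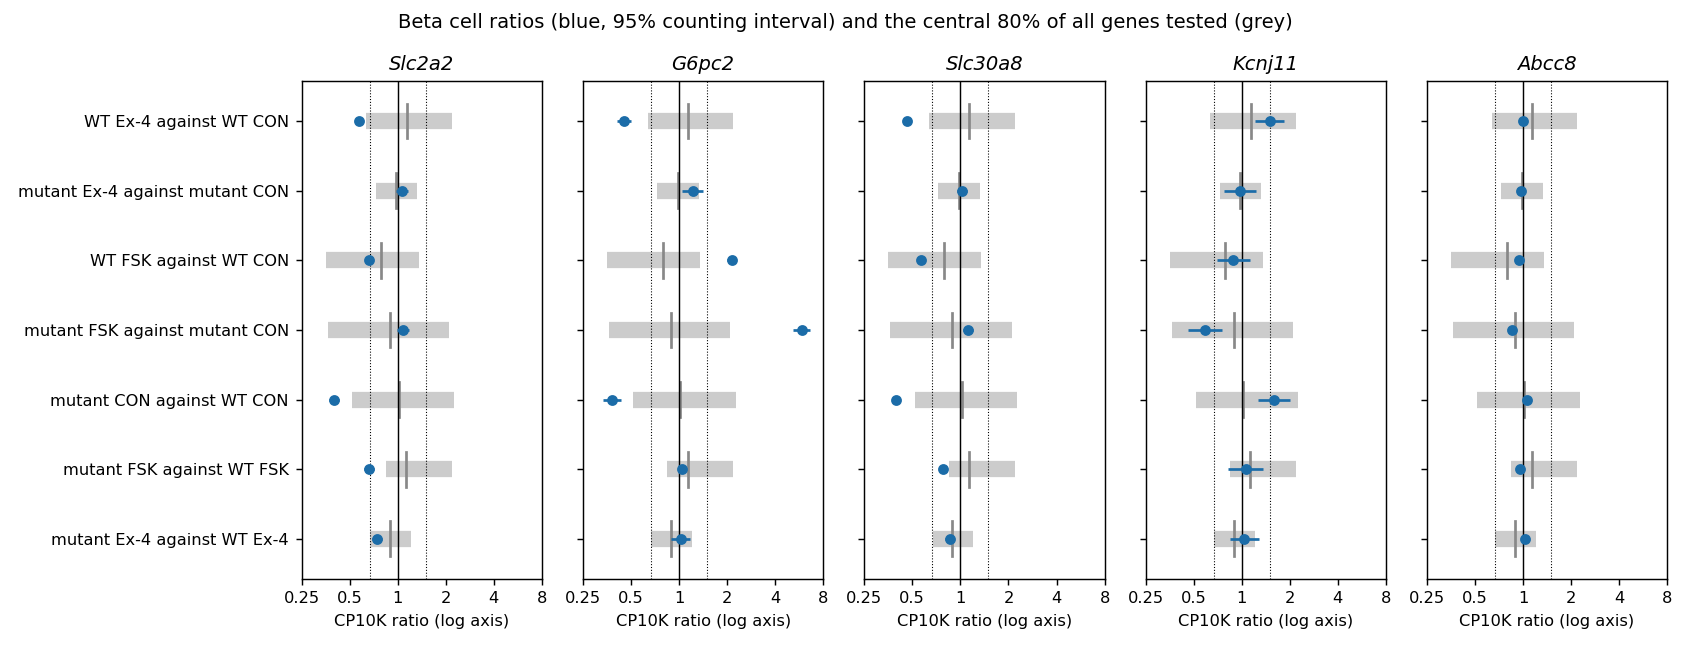
CP10K ratios of the 5 genes in beta cells (x axes, log scale) for the 7 comparisons, with 95% counting intervals. Grey bars span the central 80% of all genes tested, grey ticks mark their median and dotted lines mark 1.5-fold. G6pc2 lies beyond the grey bar at 2.14 and 5.86 in the FSK comparisons, and Slc2a2, G6pc2 and Slc30a8 lie below it in WT Ex-4 against WT CON and in mutant CON against WT CON.

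The same comparisons were made in alpha and delta cells, in which 7380 and 6789 genes were tested. In alpha cells 2 of the 5 genes were past 1.5-fold in WT Ex-4 against WT CON (46.7% of all genes, both directions) and 1 in mutant Ex-4 against mutant CON (13.5%). FSK put 3 genes past it in WT (37.7%) and 2 in the mutant (35.1%). Mutant against WT gave 3 in CON (50.1%), 2 under FSK (32.8%) and 1 under Ex-4 (21.0%). Slc30a8, with 365 to 1239 counts in an alpha cell column, was 2.23-fold lower (2.02 to 2.46) with Ex-4 and 2.18-fold lower (1.94 to 2.46) with FSK in WT, and 2.77-fold lower (2.54 to 3.02) in mutant CON than in WT CON. In mutant alpha cells its ratios were 1.04 (0.941 to 1.14) with Ex-4 and 0.887 (0.803 to 0.979) with FSK. The share of beta cell markers in alpha cells ran from 8.07% to 14.7% of the beta cell level, and the Slc2a2 and G6pc2 calls there rest on 11 to 47 counts a column near that share. Its part in them was not tested.

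In delta cells 3 of the 5 genes were past 1.5-fold in WT Ex-4 against WT CON (44.6% of all genes), 1 in mutant Ex-4 against mutant CON (16.4%), 3 in WT FSK against WT CON (42.8%) and 3 in mutant FSK against mutant CON (49.0%). Mutant against WT gave 4 in CON (49.7%), 2 under FSK (29.0%) and 0 under Ex-4 (23.1%). The lowest ratios were those of WT FSK. These values belong to counts that lay below the share of beta cell markers. Slc2a2 was 10.1-fold lower (5.05 to 22.9), on 9 against 77 counts, and Slc30a8 8.54-fold lower (5.12 to 15.1), on 17 against 123 counts. Only 0.619% and 0.766% of genes lay below them. In the mutant Slc2a2 was 2.75-fold lower (1.53 to 5.16) and Slc30a8 2.28-fold lower (1.57 to 3.35) with FSK. The beta cell markers, as a share of their beta cell level, were at 22.4% in WT CON, 15.5% in WT FSK, 21.4% in mutant CON and 19.2% in mutant FSK delta cells, and their part in these ratios was not tested. Abcc8 had FSK ratios of 0.758 (0.692 to 0.830) in WT and 0.719 (0.668 to 0.774) in the mutant, on 907 to 1604 counts. For PP cells, the shallowest, only the levels are given.

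Ratios of counts within a column do not depend on the column total. They are compared between columns only, since counts also depend on gene length. In beta cells there were 2.48 Kcnj11 counts (2.10 to 2.91) per 100 Abcc8 counts in untreated WT islets, 2.32 (1.95 to 2.74) after FSK and 3.71 (3.24 to 4.24) after Ex-4. The mutant values were 3.76 (3.19 to 4.40), 2.58 (2.12 to 3.12) and 3.75 (3.17 to 4.41) in CON, FSK and Ex-4. The ratio was 1.498-fold higher (1.22 to 1.84) in WT Ex-4 than in WT CON, and 1.52-fold higher (1.21 to 1.90) in mutant CON than in WT CON. With FSK it differed from CON by a factor of 0.688 (0.538 to 0.879) in the mutant and of 0.936 (0.743 to 1.18) in WT. In alpha cells the ratio was higher with FSK than in CON, at 5.57 (3.69 to 8.09) against 3.05 (2.02 to 4.44) in WT and 5.36 (4.20 to 6.74) against 3.72 (2.87 to 4.76) in the mutant, factors of 1.82 (1.07 to 3.10) and 1.44 (1.03 to 2.01). In delta cells it ran from 2.32 to 3.99. Kcnj11 and Abcc8 span 6812 and 75527 bases, and the part of the gene length trend in these values was not tested.

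**Figure D4:**
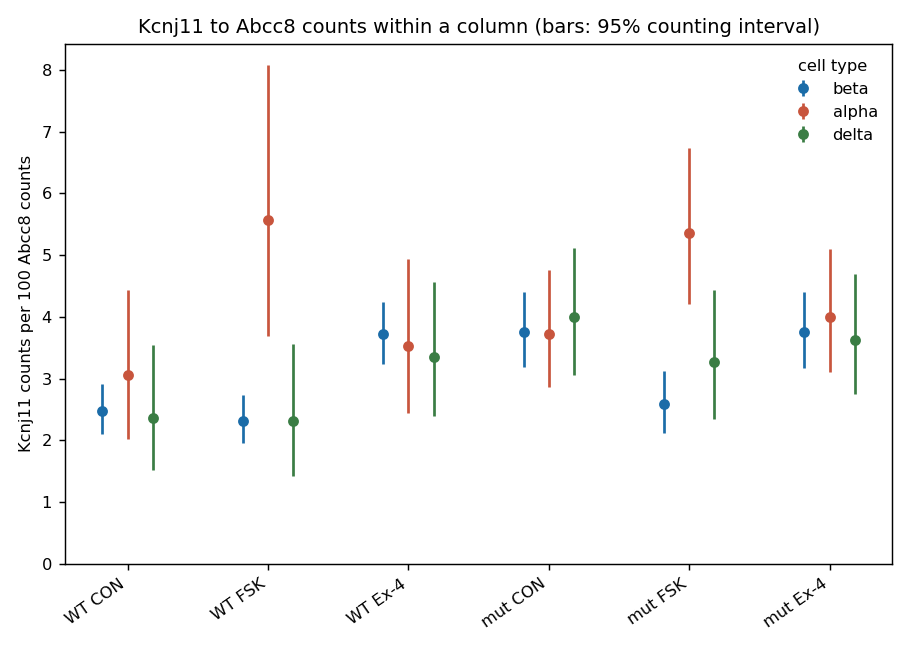
Kcnj11 counts per 100 Abcc8 counts (y axis, linear from 0) in the 6 conditions for beta, alpha and delta cells, with 95% counting intervals. In beta cells WT CON and both FSK columns (2.32 to 2.58) lie below mutant CON and both Ex-4 columns (3.71 to 3.76), and in alpha cells the FSK columns are the highest (5.57 and 5.36).

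Other genes of glucose metabolism, zinc transport and inward rectification were taken from 7 lists with 77 genes, of which 63 were in the table and 49 passed the filter in beta cells. In WT Ex-4 against WT CON, 13 of the 49 were higher (26.5%) and 5 lower (10.2%), with a median log2 ratio of 0.0037, against 29.0% and 12.3% of all genes. In mutant Ex-4 against mutant CON, 3 were higher and 1 lower (6.12% and 2.04%), with a median of -0.095, against 5.52% and 7.86% of all genes. FSK gave 6 higher and 17 lower in WT (12.2% and 34.7%, against 7.15% and 36.3% of all genes, median -0.27). In the mutant it gave 16 higher and 18 lower (32.7% and 36.7%, against 21.7% and 33.7%, median 0.16). Mutant CON against WT CON gave 11 higher and 16 lower (22.4% and 32.7%, against 26.8% and 22.0%, median -0.27). Under FSK the genotypes gave 6 higher and 0 lower (12.2% and 0%, against 25.5% and 1.94%, median 0.12), and under Ex-4 they gave 1 higher and 12 lower (2.04% and 24.5%, against 3.20% and 11.0%, median -0.36). The medians of all genes in the same order were 0.19, -0.04, -0.34, -0.16, 0.03, 0.18 and -0.17.

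By list, 4 of 9 glucose transporters in the table passed the filter. The highest of them was Slc2a13, the proton myo-inositol transporter, at 2.62 CP10K in untreated WT beta cells, 2.70 after FSK and 1.16 after Ex-4. In the mutant it was 0.841, 2.19 and 0.689 in CON, FSK and Ex-4, so that WT CON and both FSK columns were the high ones. Slc2a5, the fructose transporter, was between 0.343 and 0.795, lowest in the FSK columns. Of the other glucose-6-phosphatase system genes 3 passed, and all 3 had ratios past 1.5-fold lower with FSK in both genotypes, against 36.3% of all genes in WT and 33.7% in the mutant. Among them, Slc37a1, a phosphate exchanger for glucose-6-phosphate, had ratios of 0.549 (0.440 to 0.681) in WT and 0.625 (0.482 to 0.809) in the mutant. Slc37a4, which carries glucose-6-phosphate into the endoplasmic reticulum, had ratios of 0.573 (0.312 to 1.02) and 0.318 (0.167 to 0.578).

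Of the 14 glycolysis genes tested, 6 were lower and 0 higher with FSK in WT, and 8 lower and 2 higher in the mutant, against 36.3% of all genes lower and 7.15% higher in WT (33.7% and 21.7% for the mutant). The highest, Pfkfb2 and Pkm, were not among these, at 2.42 against 2.91 CP10K and 1.64 against 1.81 in WT. With Ex-4, 6 of the 14 were higher and 1 lower in WT, against 29.0% and 12.3% of all genes. In the mutant 1 was higher and 1 lower with Ex-4, against 5.52% and 7.86%. Of the 13 genes of mitochondrial coupling, 3 were higher and 3 lower with FSK in WT, and 7 higher and 2 lower in the mutant, where the shares of all genes were 7.15% and 36.3% in WT (21.7% and 33.7% for the mutant). Gpd2, the mitochondrial glycerol phosphate dehydrogenase, was 1.85-fold higher (1.74 to 1.97) in WT and 3.25-fold higher (2.94 to 3.61) in the mutant, and its mutant CON level was 0.457 times (0.412 to 0.507) that of WT CON. Slc25a12, an aspartate and glutamate carrier, had FSK ratios of 1.08 (0.930 to 1.26) and 1.89 (1.54 to 2.32).

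Of the 13 zinc transporters tested besides Slc30a8, 2 were higher and 3 lower with FSK in WT, and 4 higher and 3 lower in the mutant, beside the same 7.15% and 36.3%, and 21.7% and 33.7%, of all genes. Slc30a7, which serves the secretory pathway, was 1.78-fold higher (1.57 to 2.01) and 2.97-fold higher (2.45 to 3.62) with FSK, and Slc39a11 was 1.98-fold higher (1.74 to 2.26) and 2.00-fold higher (1.68 to 2.38). With Ex-4 in WT, 3 of these 13 were higher and 0 lower, against 29.0% and 12.3% of all genes. Of the channel relatives, Kcnj6 and Kcnj12 passed the filter. Kcnj6, a G protein gated subunit, was 3.37-fold higher (3.05 to 3.73) with FSK in WT and 3.76-fold higher (3.25 to 4.37) in the mutant. Kcnj12 had FSK ratios of 0.281 (0.174 to 0.439) and 0.627 (0.338 to 1.14). The last list, of Ldha and Slc16a1, had 1 gene in the table, and it did not pass the filter.

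Genes with the most similar pattern over the 6 beta cell columns were sought by Pearson's r of log2 CP10K among 2946 genes off these lists with at least 100 counts in each column. They were Ret, Tln2 and Hipk2 for Slc2a2 (0.996 to 0.988), Rai2, Ssh2 and Ctnna2 for G6pc2 (0.999), Tenm2, Kpna3 and Epb41l3 for Slc30a8 (0.999 to 0.991), Ktn1, Baz2a and Hnrnpm for Kcnj11 (0.999) and Limk2, Myt1 and Dixdc1 for Abcc8 (0.991 to 0.972). These are descriptions over 6 points that share their column totals, picked from many genes. Over the 24 endocrine columns, among 557 genes with at least 10 counts in each, Ero1b was closest to G6pc2 (0.949), Pcm1 to Kcnj11 (0.781) and Syne1 to Abcc8 (0.767). Slc2a2 and Slc30a8 were left out because each was at 0 in a column.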

How the data were processed

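Nuclei of cultured islets were profiled with a combinatorial barcoding kit. Each of the 8 sublibraries held all 6 conditions, so the sublibraries were not used as replicates. The authors mapped reads with split-pipe to mm39, filtered nuclei on counts, features and mitochondrial share, integrated them, and named clusters by cell type. The annotation release, and whether raw or corrected counts were pooled, were not given in the sources used here. Supplementary tables of the authors' comparisons were not used.

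The deposited values were natural log, ln(1 + CP10K), 1 for each of 6 conditions in 9 cell types. Whole counts were recovered for 100% of values (tolerance 0.001, largest distance 5.38e-05). Column totals ran from 1522 to 3094377, and 1 count equals 0.00323 to 0.00522 CP10K in beta cells. Ratios of CP10K had exact conditional binomial 95% intervals, counts exact Poisson intervals, and changes of within-column ratios normal intervals on the log scale, all covering counting error only. Calls required 1.5-fold, and 3 counts were taken as the limit that a count of 0 allows. The recovery and intervals were tested on simulated data. The genes, lists and rules were chosen with earlier results of these data known. Named genes were the 5 genes, the 2 genes of each list with the highest mean beta cell level, and the 3 most similar genes. A gene and the list that holds it are not reported here.

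Marker lists for endothelial, macrophage, ductal and stromal cells summed to at most 0.317 CP10K in any beta, alpha or delta cell column, and 0 of 4 acinar markers were in the table. GENCODE M39 (GRCm39) gave gene positions, and 16531 genes matched it by name while 831 did not. Alternatives were log2(CP10K + 1) differences, rescaling without 14 ribosomal RNA linked and mitochondrial genes, median centring, removal of a lowess length trend (span 0.3), a 2-fold threshold, calls on the whole interval, and other filters. Tables and intervals were computed with pandas 2.3.3, numpy 2.4.6 and scipy 1.17.1 under Python 3.11.15, trends with statsmodels 0.14.6 and plots with matplotlib 3.10.9.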

Additional observations from a re-analysis of the deposited data

Results flagged for a closer look

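Some genes moved in opposite directions under the same contrast, each with a counting interval apart from 1. The differences themselves were not tested, because each condition was 1 pool. Beta cell G6pc2 had a ratio of 0.453 with Ex-4 in WT and of 1.22 in the mutant. With FSK in WT, G6pc2 had a ratio of 2.14 in beta cells and of 0.402 in delta cells, the latter on 9 against 19 counts, below the share of beta cell markers in both columns. Beta cell Slc30a8 had a ratio of 0.566 with FSK in WT and of 1.12 in the mutant. With FSK in the mutant, Slc30a8 had a beta cell ratio of 1.12, against 0.887 for alpha and 0.439 for delta cells. On the log2 scale the mutant beta cell value of Slc30a8 was 0.16, and 0.02 after rescaling without ribosomal RNA linked and mitochondrial genes.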

How the results depend on the processing

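No paired analysis was possible because each condition had 1 pooled column and no test was run, and no replicate could be left out. Of 48 recomputed summaries, 38 stayed within 1.5 times the reported count or inside its counting interval. For calls this compares how many genes passed, not which. Of 420 single-gene ratios, 317 stayed inside their counting interval, 99 moved outside it and 4 called ones changed sign. After removal of the length trend 9 of 13 beta cell calls remained and 2 were new. On the log2(CP10K + 1) scale 9 of 13 beta, 3 of 14 alpha and 7 of 16 delta cell calls remained. The count of genes past 1.5-fold in WT FSK against WT CON (3) became 1 with the median set to 0 and 1 at a 2-fold threshold. That of mutant FSK against mutant CON (2) became 1 on the log2(CP10K + 1) scale, without the length trend, at 2-fold and when the whole interval had to pass. That of mutant FSK against WT FSK (1) became 0 on the log2(CP10K + 1) scale, at 2-fold and with the whole interval, and 2 without the length trend. Kcnj11 was the only gene whose called value changed sign, after removal of the length trend, to log2 differences of 0.23 (mutant FSK against mutant CON) and -0.20 (mutant CON against WT CON) in beta cells and of 0.015 and -0.38 in delta cells. Over the 7 beta cell comparisons the number of all genes past 1.5-fold ran from 1471 to 6080. It ran from 5 to 790 on the log2(CP10K + 1) scale, which shrinks the ratios of low genes, from 1043 to 4888 after removal of the length trend, from 2763 to 10788 with no filter and from 227 to 3303 with a mean of at least 50 counts. On the log2(CP10K + 1) scale 0.865% of genes were higher and 2.00% lower in WT Ex-4 against WT CON, 1.39% and 0.664% in WT FSK against WT CON, 4.71% and 2.48% in mutant FSK against mutant CON, and 1.36% and 3.55% in mutant CON against WT CON. On 21 to 77 counts, no neighbours in the order of Kcnj11 levels in alpha and delta cells differed beyond counting error. In delta cells mutant CON did differ from mutant FSK and from WT CON, which are not its neighbours.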
